A study of Mus musculus with 12 samples.

Results

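The dystrophin-glycoprotein complex is represented here by 8 genes, taken as every row whose symbol was Dmd, Utrn, Dag1, Sgca, Sgcb, Sgcd, Dtna or Sspn. All 8 were found among the 16288 genes listed in at least 1 of the 12 libraries, and 7 of them were listed in all 12. The exception was Dmd, which was listed in 1 library with 1 count. The RNA came from C2C12, an immortalized mouse myoblast line that fuses into myotubes when serum is lowered. The libraries formed 6 groups of 2, labelled A and B, and are called biological duplicates in the series description. Proliferating cells (GM) were kept below confluence in 10% fetal bovine serum, and differentiating cells were shifted at high confluence to 2% horse serum with insulin and harvested 24 h (DM 24h) or 48 h (DM 48h) later, stages also written as 24 h and 48 h. At each stage one group received DMSO, the vehicle, and the other received 50 uM PFI-3, a small molecule ligand for the bromodomains of BRM, BRG1 and PB1, subunits of SWI/SNF chromatin remodellers. Treatment began 12 h before the GM harvest or before induction, and it was renewed every 24 h in differentiation medium. All groups share this single cell line, which contains no nerve, vessel or connective tissue, and the p-values below measure the spread between these duplicates only.

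The complex joins the actin cytoskeleton of a muscle fibre to the basement membrane outside it. Inside the cell, dystrophin, or its relative utrophin, binds actin at one end and the membrane protein beta-dystroglycan at the other. Beta-dystroglycan holds alpha-dystroglycan, whose sugar chains bind laminins and other matrix proteins, while the sarcoglycans and sarcospan form a side unit in the membrane and the dystrobrevins and syntrophins attach to dystrophin from within. Loss of dystrophin causes Duchenne muscular dystrophy, and loss of single sarcoglycans causes limb-girdle muscular dystrophies.

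Each library held between 12576374 and 13658352 expected counts, so that a count of 3, taken as the detection floor, was worth 0.2196 to 0.2385 CPM (counts scaled to library size). Floors of this kind cover counting error only. The labelled cell type was checked with 10 genes of myoblasts and muscle cells (Myod1, Myf5, Pax7, Cdh15, Des, Myog, Mymk, Acta1, Ckm and Myh3). All 10 had counts in at least 1 library, but in GM DMSO only 9 passed 3 counts. Ckm, Myog, Mymk and Myh3 averaged 0.0761, 0.263, 0.461 and 0.53 CPM in GM DMSO, under or near the floor. The summed level of the 10 genes was 833 to 861 CPM in GM DMSO, 4183 to 4202 in DM 24h DMSO and 18600 to 18810 in DM 48h DMSO libraries. With PFI-3 it was 530.2 to 666 CPM in GM, 2321 to 2349 at 24 h and 12940 to 13310 at 48 h, below DMSO in both libraries at each stage. Markers of other lineages were sparse. Of 6 adipocyte markers only Pparg passed 3 counts, and Plin1, Cidec and Lep had none. The 5 endothelial markers summed to at most 5.77 CPM and the 5 leukocyte markers to at most 9.54 CPM, with Adgre1 at 0 and Ptprc at no more than 2 counts in any library. Of the 6 Schwann cell and neuron markers Tubb3 carried most of the signal, while Sox10 and Rbfox3 never passed 1 count and Snap25 had none. The sum of that list was 67.2 to 69.7 CPM in GM DMSO against 35.0 to 47.0 with PFI-3, 23.1 to 26.7 against 8.84 to 10.2 at 24 h, and 19.5 to 20.7 against 8.30 to 9.05 at 48 h. Of 6 osteoblast and chondrocyte markers Sox9 carried most (783 to 1292 counts), with Ibsp and Acan at 0, and the list summed to 57.7 to 98.7 CPM over all libraries. The part that these markers play in the results on the complex was not tested.

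Promoter sequences were matched by gene identifier in a RefSeq table for GRCm38.p6, which held entries for 7 of the 8 genes; Dtna had none. The 250 bases before the annotated start are shown for 3 of them: for Sgca and Dag1, because these had the largest falls under PFI-3 reported below, and for the muscle form of Dmd, the member listed at or near 0. These windows overlap no GENCODE exon and lie at chr11:94976328-94976577 (minus strand), chr9:108263959-108264208 (minus strand) and chrX:82948620-82948869 (plus strand). The near end of the Dag1 window falls within the RefSeq span of the gene, which ends at 108263977. Both strands were searched for E-boxes (CANNTG, the motif read by MYOD1 and myogenin, of which CAGCTG is a special case), for the CArG box of serum response factor and for the MEF2 site. Capitals mark every match.
Sgca: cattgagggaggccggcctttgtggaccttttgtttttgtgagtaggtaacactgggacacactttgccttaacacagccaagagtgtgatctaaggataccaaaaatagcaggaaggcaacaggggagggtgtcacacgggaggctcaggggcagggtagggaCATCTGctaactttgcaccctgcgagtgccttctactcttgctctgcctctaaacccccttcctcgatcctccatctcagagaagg
Dag1: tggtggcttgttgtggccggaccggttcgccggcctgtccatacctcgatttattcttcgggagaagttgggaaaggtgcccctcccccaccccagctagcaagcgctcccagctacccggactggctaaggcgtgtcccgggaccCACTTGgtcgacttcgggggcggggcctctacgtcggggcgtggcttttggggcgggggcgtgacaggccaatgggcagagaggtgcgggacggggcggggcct
Dmd: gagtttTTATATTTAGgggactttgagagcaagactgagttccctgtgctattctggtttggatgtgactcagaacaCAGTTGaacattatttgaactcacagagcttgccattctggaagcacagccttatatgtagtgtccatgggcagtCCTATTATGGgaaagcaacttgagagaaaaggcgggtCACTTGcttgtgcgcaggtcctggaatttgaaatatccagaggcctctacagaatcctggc
The Sgca window held 1 E-box, CATCTG, at 86 bases before the start, and the Dag1 window held 1, CACTTG, at 104 bases before it. The Dmd window held 2 E-boxes, CAGTTG and CACTTG, 1 CArG box, CCTATTATGG, and 1 MEF2 site, TTATATTTAG. None held CAGCTG. Among 32851 promoter windows of the same length, 66.2% held CANNTG, 13.0% CAGCTG, 1.5% a CArG box and 2.9% a MEF2 site. These matches describe letters in a window and were not tied to binding.

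Dmd (NCBI Gene 13405, chrX:82814664-85205050 in GRCm38.p6) encodes dystrophin, the actin-binding rod from which the complex takes its name. Its count was 0 in 11 libraries and 1 in DM 48h DMSO library B, where the deposited FPKM (a fragment count divided by length and by depth) was 0.01. Dmd was therefore at or under the floor in every group, also at 48 h when muscle markers were at their highest. It could not be tested. Low expression of Dmd and a loss of its reads in the submitters' quantification cannot be told apart from these tables, so its values are given as listed.

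Utrn (NCBI Gene 22288, chr10:12382187-12869888) encodes utrophin, the widely expressed relative of dystrophin that occupies the same place in the complex and is enriched at the neuromuscular junction of mature fibres. Its level in DMSO libraries A and B was 105 and 133 CPM in GM, 184 and 201 at 24 h and 230.5 and 227 at 48 h. With PFI-3 the values were 121 and 122 CPM in GM, 148 and 155 at 24 h and 198 and 186 at 48 h. The treated libraries lay between the control libraries in GM and below both of them at the later stages. Utrn rose by 0.69 on the log2 scale from GM to DM 24h (SE 0.0966, edgeR adjusted p = 6.27e-05) and by 0.94 from GM to DM 48h (SE 0.0966, edgeR adjusted p = 2.29e-06). The further rise from DM 24h to DM 48h was 0.25 (SE 0.095, edgeR adjusted p = 0.0471); this call was lost on log2(FPKM + 1) with limma (adjusted p = 0.215) and without any 1 of the 8 differentiation libraries (edgeR adjusted p 0.0628 to 0.272). Under PFI-3, Utrn fell by 0.35 at 24 h (SE 0.0957, edgeR adjusted p = 0.0216). That call was lost when limma was run on log2(FPKM + 1) (adjusted p = 0.0969) and without any 1 of the 4 DM 24h libraries (edgeR adjusted p 0.0545 to 0.169). At DM 48h the log2 fold change was -0.26 (SE 0.095, edgeR adjusted p = 0.0651), which was not called. It was called in the fit of only the 4 libraries of that stage (edgeR adjusted p = 5.06e-05), with a replicate block within each stage (0.0139) and without GM DMSO library A or B (0.00472 and 0.0052).

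Dag1 (NCBI Gene 13138, chr9:108204861-108263977) encodes the precursor that is cut into alpha- and beta-dystroglycan, the link between matrix and cytoskeleton. It was the most abundant member per length in every group, at 48.8 ± 8.2 FPKM in GM DMSO and 413.5 ± 12.7 FPKM in DM 48h DMSO (SD, n = 2). Libraries A and B of the DMSO groups held 248 and 297 CPM in GM, 1310.2 and 1377 at 24 h and 2379 and 2278 at 48 h. With PFI-3 they held 284 and 315 CPM in GM, 739.7 and 717 at 24 h and 1324 and 1284 at 48 h. The 2 treatments overlapped in GM and were far apart afterwards. Dag1 rose by 2.30 on the log2 scale to DM 24h (SE 0.0886, edgeR adjusted p = 9.22e-10) and by 3.09 to DM 48h (SE 0.0913, edgeR adjusted p = 3.00e-11). PFI-3 cells had 1.85-fold less Dag1 at 24 h (log2 fold change -0.88, SE 0.0847, edgeR adjusted p = 2.19e-05) and 1.79-fold less at 48 h (-0.84, SE 0.0844, edgeR adjusted p = 2.16e-05). In level, treated cells at 48 h (1304 ± 28.7 CPM) stood beside control cells at 24 h (1344 ± 47.1 CPM, SD, n = 2), a pair of groups that was not tested. The abundance-weighted transcript length of Dag1 lay between 5459 and 5483 bases in all 12 libraries.

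**Figure D1:**
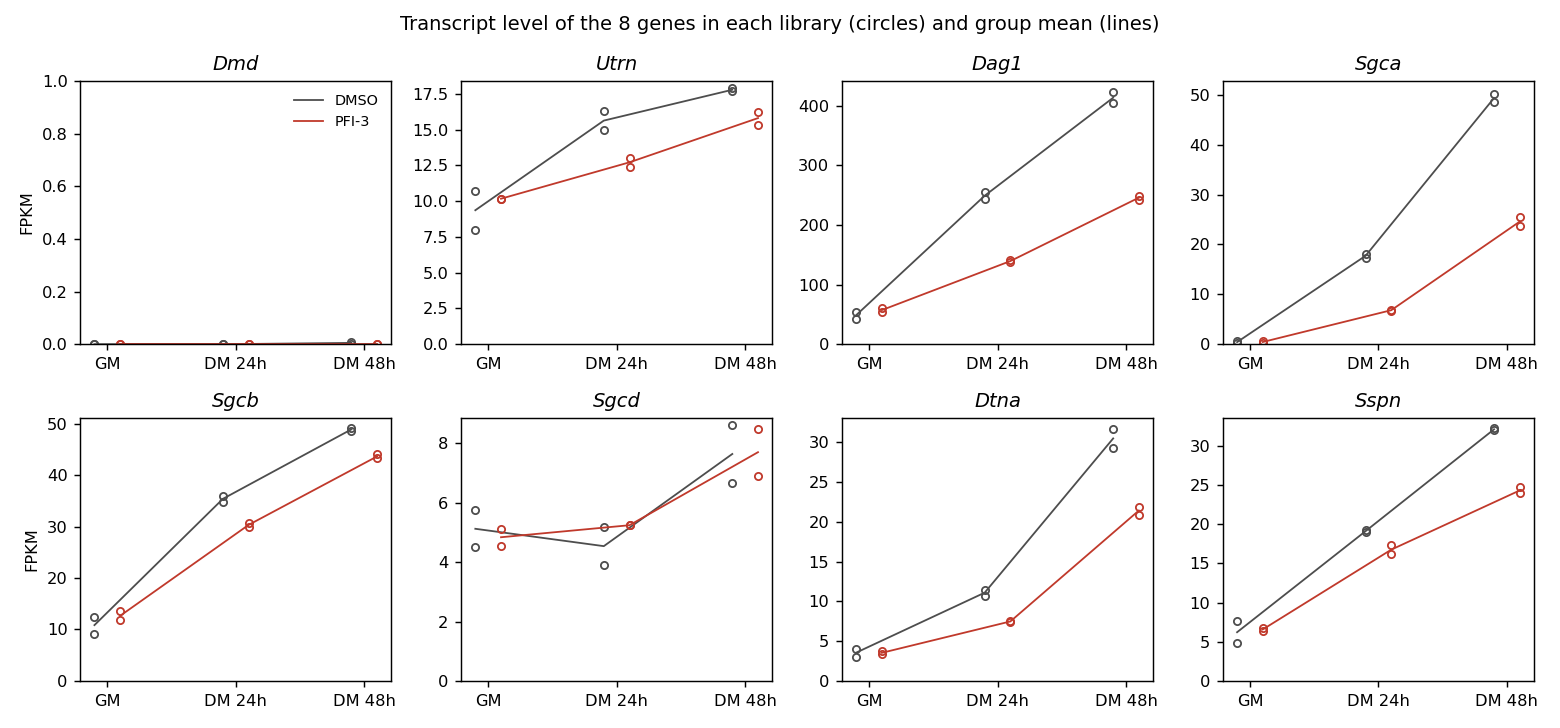
FPKM (vertical axis, each panel with its own scale) of the 8 genes in GM, DM 24h and DM 48h cells, with 1 circle for each library and lines through the means of the 2 libraries, DMSO in grey and PFI-3 in red. Dmd stays at 0 except for 0.01 in 1 library, and Dag1 reaches 413.5 in DM 48h DMSO cells against 245.9 with PFI-3. The Sgcd circles of both treatments overlap in GM and at DM 48h. At DM 24h both Sgcd PFI-3 circles (5.24 and 5.25) lie above both DMSO circles (5.17 and 3.91), while in CPM the treatments overlap at that stage.

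Sgca (NCBI Gene 20391, chr11:94962777-94976327) encodes alpha-sarcoglycan, the sarcoglycan restricted to striated muscle, and it had the steepest rise of the 7 tested members. It was close to the floor in GM, with 4 and 15 expected counts in the DMSO libraries and 5 and 15 in the PFI-3 libraries (0.314, 1.11, 0.364 and 1.07 CPM). At DM 24h the DMSO libraries held 30.0 and 28.9 CPM and the PFI-3 libraries 11.2 and 10.8 CPM. At DM 48h they held 84.1 and 87.4 CPM with DMSO and 41.6 and 38.8 CPM with PFI-3. Treated libraries lay below both controls at the 2 differentiation stages, and libraries A and B differed more than the treatments in GM. The fitted rise was 5.33 on the log2 scale at 24 h (SE 0.264, edgeR adjusted p = 8.41e-09) and 6.87 at 48 h (SE 0.240, edgeR adjusted p = 1.36e-10), with the low GM counts as the base. PFI-3 cells held 2.69-fold less Sgca at 24 h (log2 fold change -1.43, SE 0.165, edgeR adjusted p = 9.12e-05) and 2.13-fold less at 48 h (-1.09, SE 0.138, edgeR adjusted p = 1.17e-04). With limma on log2(FPKM + 0.1) the DM 48h call was lost (adjusted p = 0.111).

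Sgcb (NCBI Gene 24051, chr5:73632749-73647737) encodes beta-sarcoglycan, which is found in muscle and in several other tissues. Its DMSO libraries held 35.8 and 46.1 CPM in GM, 131 and 128 at 24 h and 186 and 188 at 48 h. The PFI-3 libraries held 41.5 and 48.0, 106 and 109, and 156 and 158 CPM at the same stages. The differentiating PFI-3 libraries were all below their controls by a small margin. Sgcb rose by 1.66 to DM 24h (SE 0.103, edgeR adjusted p = 6.40e-08) and by 2.19 to DM 48h (SE 0.104, edgeR adjusted p = 1.89e-09). Its log2 fold change under PFI-3 was -0.27 at 24 h (SE 0.0972, edgeR adjusted p = 0.063) and -0.25 at 48 h (SE 0.0955, edgeR adjusted p = 0.0715), and neither was called. In fits of only the 4 libraries of a stage, which leave out the wider GM duplicates, both were called (edgeR adjusted p = 1.83e-05 and 7.08e-05). Without GM DMSO library B they were called too (edgeR adjusted p = 0.007 and 0.00847), as without each other GM library.

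Sgcd (NCBI Gene 24052, chr11:46971077-47989451) encodes delta-sarcoglycan, which pairs with beta-sarcoglycan in the core of the sarcoglycan unit. It was the one tested member whose treated libraries were not below their controls at either differentiation stage. DMSO libraries held 6.35 and 7.68 CPM in GM, 6.81 and 5.18 at 24 h and 9.19 and 11.9 at 48 h, and PFI-3 libraries held 6.55 and 5.84, 6.69 and 6.71, and 11.0 and 8.98 CPM. The 2 treatments overlapped at all 3 stages. The log2 fold change to DM 24h was -0.23 (SE 0.203, edgeR adjusted p = 0.348), and Sgcd rose by 0.59 from GM to DM 48h (SE 0.191, edgeR adjusted p = 0.0147). That call was lost without GM DMSO library A (edgeR adjusted p = 0.0824) or without DM 48h DMSO library B (0.155). The rise from DM 24h to DM 48h was 0.82 (SE 0.196, edgeR adjusted p = 0.00448), and it too was lost without DM 24h DMSO library B (edgeR adjusted p = 0.0551) or DM 48h DMSO library B (0.0581). PFI-3 minus DMSO was -0.18, 0.16 and -0.08 on the log2 scale at the 3 stages (SE 0.200, 0.204 and 0.184), with edgeR adjusted p-values of 0.589, 0.615 and 0.798.

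Sspn (NCBI Gene 16651, chr6:145931873-145965225) encodes sarcospan, a small membrane protein of the sarcoglycan unit. DMSO libraries A and B held 22.2 and 33.4 CPM in GM, 82.0 and 83.8 at 24 h and 146 and 145 at 48 h. PFI-3 libraries held 28.1 and 27.1, 67.9 and 72.7, and 102 and 105 CPM. The treatments overlapped in GM, and the treated libraries were the lower ones at both later stages. Sspn rose by 1.57 to DM 24h (SE 0.132, edgeR adjusted p = 9.09e-07) and by 2.39 to DM 48h (SE 0.132, edgeR adjusted p = 7.46e-09). Under PFI-3 it fell by 0.49 at 48 h (SE 0.120, edgeR adjusted p = 0.00979), which was lost with limma on log2(FPKM + 1) (adjusted p = 0.0657) and without any 1 of the 4 DM 48h libraries (edgeR adjusted p 0.0561 to 0.0809). At DM 24h its log2 fold change was -0.24 (SE 0.123, edgeR adjusted p = 0.187) and was not called. It was called in the fit of only the 4 libraries of that stage (edgeR adjusted p = 0.000813) and without GM DMSO library A or B (0.0125 and 0.0108).

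Dtna (NCBI Gene 13527) encodes alpha-dystrobrevin, a cytoplasmic partner of dystrophin that carries syntrophins. DMSO libraries held 18.3 and 21.7 CPM in GM, 50.2 and 51.9 at 24 h and 108 and 111 at 48 h. PFI-3 libraries held 18.3 and 20.6, 37.4 and 37.2, and 65.8 and 69.9 CPM. Treated and control libraries overlapped in GM only. Dtna rose by 1.35 to DM 24h (SE 0.0927, edgeR adjusted p = 1.64e-07) and by 2.45 to DM 48h (SE 0.0909, edgeR adjusted p = 2.25e-10). PFI-3 cells had 1.37-fold less Dtna at 24 h (log2 fold change -0.45, SE 0.0873, edgeR adjusted p = 0.00326) and 1.61-fold less at 48 h (-0.69, SE 0.0817, edgeR adjusted p = 7.24e-05).

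Dtna also changed in the length of the transcripts counted. The tables give, for each library, the mean length of a gene's transcripts weighted by their abundance, and 8 Dtna transcripts are named, with GENCODE lengths from 1596 to 6295 bases. In DMSO libraries A and B the mean length was 5723 and 5358 bases in GM, 4765 and 4582 at 24 h and 3601 and 3426 at 48 h, without overlap between stages. The DM 48h mean was 63.4% of the GM mean. Of 4225 genes with several transcripts and at least 5 CPM, 4, or 0.0947%, including Dtna, shortened as far or further. PFI-3 libraries had 5773 and 5744 bases in GM, 5315 and 5152 at 24 h and 3265 and 3325 at 48 h. With PFI-3 the length was thus higher than in both controls in GM (103.9% of the DMSO mean, a shift that 82 of the 4225 genes matched, Dtna included) and at 24 h (112.0%, matched by 6), and lower than in both at 48 h (93.8%, matched by 16). In GM the 2 DMSO libraries lay further apart than the 2 group means (5758 bases with PFI-3 and 5540 with DMSO). The numbers of matching genes rank shifts of the means. How many genes had lengths without overlap between treatments was not counted. These lengths were not tested. Because FPKM divides by length, Dtna went from 3.56 to 30.5 FPKM between GM and DM 48h in DMSO cells, while its CPM went from 20.0 to 109.

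**Figure D2:**
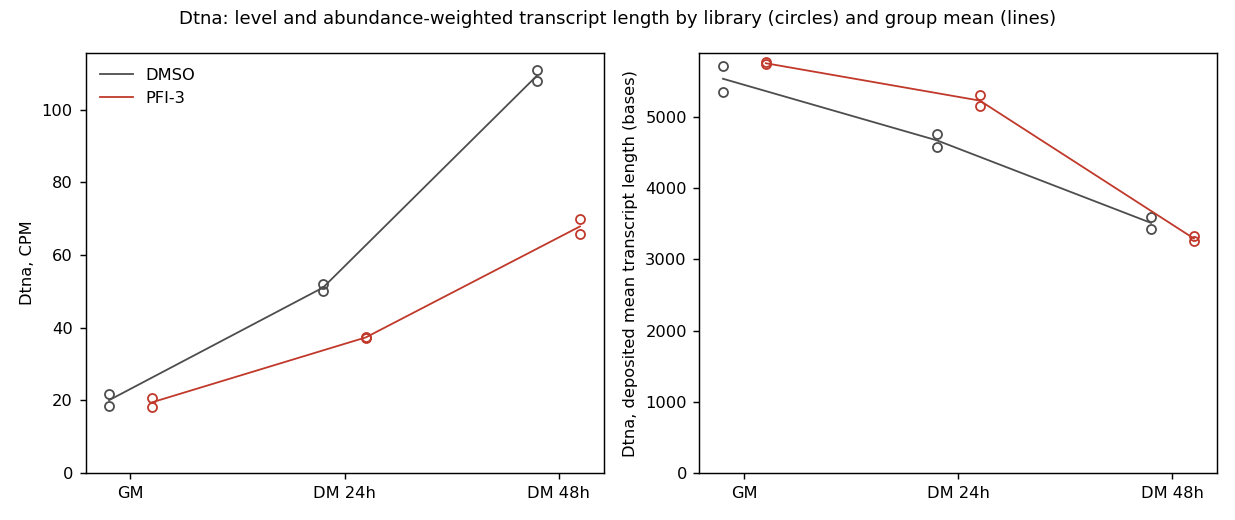
Level in CPM (left) and abundance-weighted transcript length in bases (right) of Dtna by stage, with 1 circle for each library and lines through the means of the 2 libraries. The level climbs from 20.0 to 109 CPM in DMSO cells while the length drops from 5540 to 3514 bases. Both PFI-3 libraries hold longer transcripts than both DMSO libraries in GM and at 24 h and shorter ones at 48 h. In GM the 2 DMSO libraries lie further apart than the 2 group means.

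Compared per length, on the FPKM scale, the order in GM DMSO cells was Dag1 (48.8), Sgcb (10.8), Utrn (9.37), Sspn (6.22), Sgcd (5.13), Dtna (3.56), Sgca (0.42) and Dmd (0). The libraries of Sgcb and Utrn overlapped, as did those of Sspn and Sgcd. At DM 48h with DMSO the order was Dag1 (413.5), Sgca (49.4), Sgcb (48.9), Sspn (32.1), Dtna (30.5), Utrn (17.8), Sgcd (7.65) and Dmd (0.005), and only Sgca and Sgcb overlapped among neighbours. Sgca thus moved from the seventh place to the second. With PFI-3 at 48 h, Sgca (24.6 FPKM) stood behind Sgcb (43.6 FPKM) and overlapped Sspn (24.3 FPKM).

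In the DMSO series, 6 of the 7 tested members rose from GM to DM 24h, where 30.6% of the 12545 genes tested were called higher. All 7 rose from GM to DM 48h (37.2% of all genes) and from DM 24h to DM 48h (24.2%). The median log2 fold change of the 7 was 1.57, 2.39 and 0.81 in these comparisons, against 0.02, 0.03 and 0.005 over all genes tested.

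The treated and vehicle groups of a stage were then set against each other, which addresses how the expression of these genes differs with PFI-3. Whether such differences come from bromodomain inhibition was not tested. In GM none of the 7 members was called by edgeR, where 11.6% of all genes were called in either direction. None reached an unadjusted p under 0.05, and neither DESeq2 nor limma called any. Without GM DMSO library B, however, which left 1 library in that group, the log2 fold changes of Dag1, Sgcb and Sspn were 0.28, 0.32 and 0.32. Without GM DMSO library A they were 0.01, -0.04 and -0.27. At DM 24h, Sgca, Dag1, Dtna and Utrn fell, 4 of the 7, where 11.4% of all genes were called lower. At DM 48h, Sgca, Dag1, Dtna and Sspn fell, again 4 of the 7, where 14.0% of all genes were called lower. No member was called higher at any stage. The median of the 7 was -0.004 in GM, -0.35 at 24 h and -0.49 at 48 h, against -0.01, -0.001 and 0.001 over all genes. Both PFI-3 libraries lay below both DMSO libraries for 6 of the 7 at 24 h and at 48 h, where 35.2% and 35.9% of all genes did so. Across all genes the share of calls that were higher with PFI-3 was 47.0% in GM, 51.7% at 24 h and 48.9% at 48 h with edgeR, and 75.3%, 62.0% and 65.3% with limma on log2(FPKM + 1). In bulk RNA, fewer differentiated cells and less RNA of a gene per cell cannot be told apart, and 7 of the 10 muscle markers were also called lower at 24 h and at 48 h.

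**Figure D3:**
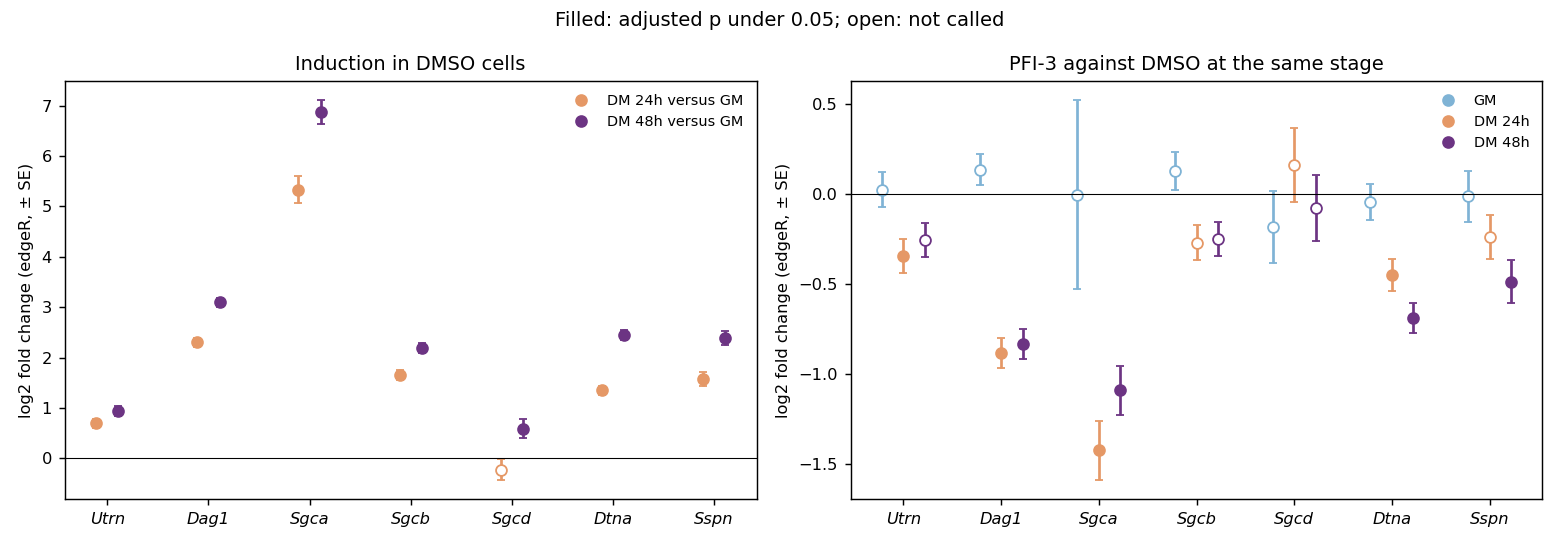
Log2 fold change with its standard error (vertical axis) for the 7 tested genes, for later stages against GM in DMSO cells (left) and for PFI-3 against DMSO at each stage (right), filled where the edgeR adjusted p was under 0.05. Sgca has the largest rise (6.87 at 48 h) and the largest fall under PFI-3 (-1.43 at 24 h), while all GM points of the right panel are open.

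The difference of the PFI-3 effect between stages was tested directly as an interaction. Stage went together with the length of PFI-3 exposure, the medium and the cell density, so their parts cannot be told apart. Between DM 24h and GM it was called by edgeR without a replicate block for Dag1 alone (-1.02 on the log2 scale, SE 0.120, edgeR adjusted p = 0.00121), where 3.37% of all genes were called. Between DM 48h and GM it was called for Dag1 (-0.97, SE 0.120, edgeR adjusted p = 2.69e-04) and Dtna (-0.64, SE 0.129, edgeR adjusted p = 0.00586), where 14.5% of all genes were called. The Dtna call was lost when limma was run on log2(FPKM + 1) (adjusted p = 0.0534). A replicate block within each stage, chosen after seeing the data, added Utrn, Sgca, Sgcb and Dtna between DM 24h and GM (edgeR adjusted p = 0.0394, 0.0407, 0.0184 and 0.0414). Between DM 48h and GM it added Sgcb and Sspn (edgeR adjusted p = 0.0104 and 0.0316). For DM 24h minus GM that block called 1225 genes in all, against 423 without it. Sgca had estimates as large (-1.42 and -1.09), but with standard errors of 0.566 and 0.556 from its low GM counts, and it was not called (edgeR adjusted p = 0.207 and 0.221). With limma on log2(FPKM + 1) Sgca was called in both comparisons (-1.29 and -1.01, limma adjusted p = 0.0131 and 0.0151). Without GM DMSO library B, which left 1 library in that group, the 2 estimates were -0.56 and -0.47 for Utrn and -2.60 and -2.27 for Sgca. They were -0.59 and -0.57 for Sgcb and -0.55 and -0.80 for Sspn. Without GM DMSO library A the Sspn estimate between DM 24h and GM was 0.041. Both comparisons share the GM libraries. Between DM 48h and DM 24h no member was called by edgeR, where 12.1% of all genes were; none had an unadjusted p under 0.05, and DESeq2 and limma called none. In a fit of the 8 differentiation libraries alone, 3 were called: Sgca (0.32, edgeR adjusted p = 0.0354), Dtna (-0.25, 0.0312) and Sspn (-0.26, 0.00697). That fit called 4154 genes in all, against 1517 in the fit of all 12 libraries. The share of interaction calls that were positive between DM 24h and GM was 52.7% over all genes with edgeR and 32.9% with limma on log2(FPKM + 1).

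Other subunits of the complex were counted from a list of 12 genes, of which 9 could be tested. From GM to DM 48h in DMSO cells 7 rose and 1 fell, where 37.2% of all genes were called higher and 35.9% lower. Cav3, the muscle caveolin that binds beta-dystroglycan, went from 0.113 CPM in GM DMSO cells, under the floor, to 7.13 CPM at 24 h and 80.6 CPM at 48 h. Sntb1, a syntrophin, rose by 4.46 at 24 h (SE 0.144, edgeR adjusted p = 1.99e-10) and by 6.30 at 48 h (SE 0.134, edgeR adjusted p = 1.61e-12). Drp2, a further relative of dystrophin, rose by 1.34 at 24 h (SE 0.099, edgeR adjusted p = 3.12e-07), to 152 CPM.

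Under PFI-3, 1 of these 9 was called higher and none lower in GM, where 5.46% of all genes were called higher and 6.15% lower. The calls were 3 higher and 3 lower after 24 h of differentiation, with 12.2% of all genes called higher and 11.4% lower. After 48 h they were 2 higher and 5 lower, with 13.4% of all genes called higher and 14.0% lower. Cav3 (log2 fold change -1.44, SE 0.220, edgeR adjusted p = 0.001) and Sntb1 (-1.19, edgeR adjusted p = 7.77e-06) were among those lower at 24 h, and Cav3 was lower at 48 h as well (-0.88, SE 0.125, edgeR adjusted p = 3.77e-04). Sntb2, another syntrophin, was higher at 24 h (0.95, SE 0.0905, edgeR adjusted p = 2.12e-05). Dtnb, the beta-dystrobrevin, was higher at 48 h (0.60, SE 0.145, edgeR adjusted p = 0.00942).

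Genes linked to the glycosylation of dystroglycan, which gives it its laminin-binding sugar, formed a list of 20, all tested. In DMSO cells 8 rose and 7 fell from GM to DM 48h, near the 37.2% of all genes called higher and 35.9% lower. Dpm1 (1.11) and Dpm3 (1.06), subunits of dolichol-phosphate-mannose synthase, were the largest rises, and Mpdu1 (-0.75) was the largest fall among those named. In GM, PFI-3 against DMSO called 2 of them higher and none lower, where 5.46% of all genes were called higher and 6.15% lower. The calls at 24 h were 3 higher and 1 lower, and those at 48 h were 3 higher and none lower. These 3 of 20 are near the share of all genes called higher with PFI-3 (12.2% at 24 h and 13.4% at 48 h). The share of all genes called lower was 11.4% at 24 h and 14.0% at 48 h. The called changes were below 0.78 on the log2 scale, such as Pomk, a kinase of the sugar chain, at 24 h (0.41, SE 0.121, edgeR adjusted p = 0.029) and Pomt1, a protein O-mannosyltransferase, at 48 h (0.33, SE 0.106, edgeR adjusted p = 0.0348). Their median was 0.13, 0.08 and 0.11 at the 3 stages.

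Of 14 matrix proteins that bind dystroglycan or its partners, 12 could be tested. Lama2, the laminin chain of mature muscle, rose by 3.21 at 24 h and by 3.99 at 48 h (SE 0.104, edgeR adjusted p = 9.81e-12), while Nid1, nidogen, fell by 2.39 by DM 48h (SE 0.0944, edgeR adjusted p = 3.80e-10). With PFI-3, 3 were called lower in GM and none higher, where 6.15% of all genes were called lower and 5.46% higher. The later stages gave 2 higher with 4 lower (24 h) and 2 higher with 5 lower (48 h), beside 12.2% and 13.4% of all genes called higher and 11.4% and 14.0% called lower. The 2 higher calls are near that background. Bgn, the proteoglycan biglycan, was lower at all 3 stages: -1.40 in GM, -1.65 at 24 h and -1.47 at 48 h (SE 0.0732, 0.0735 and 0.073, edgeR adjusted p at most 8.51e-07). Lama2 fell at 24 h (-0.61) and DM 48h (-0.78, SE 0.0841, edgeR adjusted p = 3.64e-05), and Lamb1 was lower at the 3 stages (-0.44, -0.52 and -0.73). Lamb2, a laminin beta chain of synaptic basement membrane, was higher at 24 h (0.47) and DM 48h (0.36, SE 0.0803, edgeR adjusted p = 0.00578).

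Of 15 membrane and cytoskeletal partners, 14 could be tested. In DMSO cells 8 rose and 3 fell by DM 48h, where 37.2% of all genes were called higher and 35.9% lower. Among them were Dysf (dysferlin, a membrane repair protein) at 4.55, Des (desmin) at 2.31, Sync (syncoilin, which binds alpha-dystrobrevin) at 1.94 and Actb at -2.08. With PFI-3, 4 were called lower in GM and 1 higher, where 6.15% of all genes were called lower and 5.46% higher. The later stages gave 2 higher with 3 lower (24 h) and 1 higher with 3 lower (48 h). Of all genes 12.2% and 13.4% were called higher at these stages, and 11.4% and 14.0% lower. The 2 of 14 higher at 24 h are near the 12.2% over all genes. Sync was lower at all 3 stages (-0.97, -0.57 and -0.50), and Itga7, an integrin that binds laminin, was lower in GM (-0.50) and at 24 h (-0.61). Dysf was lower at 24 h (-0.52) and DM 48h (-0.62). Ank2, an ankyrin, was higher in GM (0.95) and at 24 h (0.96).

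**Figure D4:**
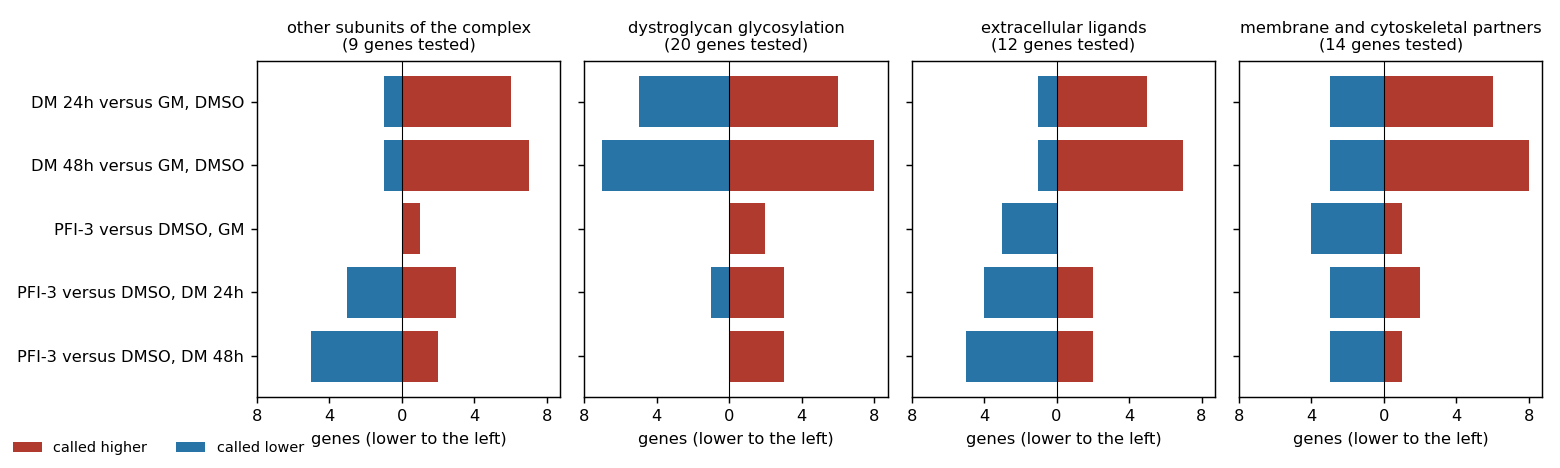
Number of genes called higher (red, to the right) or lower (blue, to the left) by edgeR in 4 lists of genes around the complex, for later stages against GM in DMSO cells and for PFI-3 against DMSO at each stage. The list of other subunits has 7 genes higher and 1 lower at 48 h against GM, and 2 higher and 5 lower with PFI-3 at 48 h.

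The members resembled each other over the 12 libraries, which share the 3 stages and so a common time course. Pearson's r of log2 CPM lay between 0.956 and 0.995 for every pair without Sgcd and between 0.56 and 0.681 for pairs with it. The genes most like each member among 10366 with at least 5 CPM were Ckb and Nol3 for Utrn (r = 0.984 and 0.983), Pde2a and Myzap for Dag1 (0.996 and 0.995), and Msi2 and Akap6 for Sgca (both 0.997). For Sgcb they were Ddc and Smim5 (both 0.998), for Sspn Rab5b and Ddc (both 0.996), and for Dtna Mybpc1 and Pkig (0.995 and 0.993). The closest for Sgcd, Rad52 and Snx8, reached 0.940 and 0.925.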

How the data were processed

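RNA from 12 C2C12 libraries was analysed in 6 groups of 2, read from the sample titles. The authors deposited 1 table per library with an expected count, an FPKM value and an abundance-weighted length per gene, per the file headers. HISAT, StringTie, Cufflinks, Bowtie, RSEM, DESeq2 and the build mm10 are named in the submitters' processing notes, with no role or version; strand handling is not given in the sources used here. A gene missing from a table was taken as 0. The deposited expected counts, after rounding, went into edgeR 4.0.16 (R 4.3.3; quasi-likelihood test, TMM scaling, filterByExpr) in 1 fit of all 12 libraries and 6 groups. The filter kept 12545 of 16288 genes, and p-values were adjusted over these by Benjamini-Hochberg, two-sided, with calls at an adjusted p under 0.05. CPM values use the TMM-scaled library size and follow each gene between groups, while deposited FPKM compares genes with each other. Fold changes are on the log2 scale. Tested on simulated counts for PFI-3 against DMSO at DM 24h (12331 genes, 200 changed 2-fold), the fit recovered 92.5% of the changed genes, and 5.6% of calls were false. The simulation drew all groups from 1 mean and 1 spread per gene and changed only genes above a count limit. It left out the wider spread of the GM duplicates, so these rates may not hold for the real libraries.

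Members and lists were chosen with earlier results of these data known. All 8 members are named. In each list at most 4 called genes are named per comparison, those with the largest change and at least 5 CPM on average. Some genes that meet this rule are not reported here. For each member the 2 most alike genes are named. Alternatives were DESeq2 1.42.0, its size factors in edgeR, limma 3.58.1 on log2(FPKM + 1) and log2(FPKM + 0.1), other filters, only the libraries compared, a replicate block and each library left out.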

Additional observations from a re-analysis of the deposited data

Results flagged for a closer look

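An interaction term in edgeR, fitted without a replicate block, called a difference in the PFI-3 effect between stages for 2 of the members. The stages also differ in length of exposure, medium and cell density, which cannot be told apart here. For Dag1 the log2 effect of PFI-3 at DM 24h minus that in GM was -1.02 (edgeR adjusted p = 0.00121), and the effect at DM 48h minus that in GM was -0.9723 (edgeR adjusted p = 2.69e-04). For Dtna the effect at DM 48h minus that in GM was -0.6444 (edgeR adjusted p = 0.00586). For both genes the 2 PFI-3 libraries lay below both DMSO libraries at DM 24h and DM 48h and overlapped them in GM. The same held for Utrn, Sgca, Sgcb and Sspn, so the pattern does not set the 2 genes apart. Of all genes, 35.2% had both PFI-3 libraries below both DMSO libraries at DM 24h and 35.9% at DM 48h.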

How the results depend on the processing

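Over all alternatives, 1253 single-gene values kept their direction and side of the threshold, 53 gained a call, 29 lost one and 30 changed sign. All 30 were uncalled in the main fit, and a value that changed sign was not also counted as a gained call. Members called moved from 4 to 2 at 48 h with limma on log2(FPKM + 0.1). For DM 24h minus GM they moved from 1 to 2 with limma on log2(FPKM + 1) and to 5 with a replicate block inside every stage, an alternative chosen after seeing the data. For DM 48h minus GM they moved from 2 to 1 with limma on log2(FPKM + 0.1) and to 4 with that block. For DM 48h minus DM 24h they moved from 0 to 3 in fits of only the libraries compared, with or without a block. Leaving out 1 library gave 0 to 3 members in GM, 3 to 6 at 24 h, 3 to 6 at 48 h, 1 to 6 for DM 24h minus GM and 2 to 6 for DM 48h minus GM, the highest of the GM and interaction counts without GM DMSO library B. The cause was not tested.

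Sign changes of PFI-3 against DMSO in GM were, for Sgca, 0.0299 and 0.12 with limma at pseudocounts of 1 and 0.1, 0.0195 and 0.0377 with only the libraries compared without and with block, and 0.011 with the block within each stage. For Sspn they were 0.097, 0.12, 0.00573 and 0.027 under the first 4 of these, and for Dtna 0.00214 with limma at 0.1. Sgcd at 48 h was 0.013 and 0.015 with limma, and Dtna for DM 48h minus DM 24h was 0.023 and 0.056. With 1 library left out, GM values ran from -0.14 to 0.21 for Utrn, -0.97 to 1.18 for Sgca, -0.041 to 0.32 for Sgcb, -0.16 to 0.085 for Dtna and -0.27 to 0.32 for Sspn. Sgcd ran from -0.0201 to 0.37 at 24 h and -0.26 to 0.12 at 48 h, and from -0.073 to 0.30 for DM 48h minus GM. Sspn for DM 24h minus GM ran from -0.55 to 0.041 and Sgcb for DM 48h minus DM 24h from -0.000399 to 0.043.

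The letters A and B were not taken to pair libraries: the deviations from the group means of libraries sharing a letter had a correlation of 0.488 in GM but 0.018 and 0.037 at the later stages. With a replicate block in the fit of all libraries, 5 members in place of 4 were called at 24 h (Sgcb, edgeR adjusted p = 0.046), and no other member call changed. The SD of log2 ratios between duplicates was 0.367 and 0.333 in GM and 0.144 to 0.168 later. Genes called in all went from 1456 to 32 in GM, from 2966 to 5583 at 24 h, from 3438 to 5688 at 48 h, from 423 to 79 for DM 24h minus GM, from 1824 to 1037 for DM 48h minus GM and from 1517 to 4154 for DM 48h minus DM 24h in fits of only the libraries compared. With a block added, these fits called 741, 5719, 6034, 763, 2254 and 4336; the block within each stage called 2774 in GM, 1225 for DM 24h minus GM, 2980 for DM 48h minus GM and 2612 for DM 48h minus DM 24h. Leaving out 1 library gave 1019 to 2734, 1320 to 3923, 1937 to 4323, 92 to 995, 1010 to 2924 and 790 to 2408 in the same order.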
